A study of Mus musculus with 27 samples.

Results

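The genes described here were Ret, Phox2a, Sox10, Hand2, Elavl4, Nefl and Nefm, which are known markers of enteric neurons and glia, read across all groups of a study of the developing mouse esophagus. They were taken by gene name from the spots that measure transcripts and made up 7 of 28427 genes and 11 of 41174 probes on the array. Expression was measured on 27 arrays in 2 colours, with 3 arrays in each of 9 groups. Each sample was labelled with Cy5 and hybridised against Cy3-labelled reference RNA pooled from 11 mouse cell lines, and dyes were never swapped. Whole esophagi came from wild-type C57BL/6J embryos at E11.5 and at E15.5, from newborn pups at P0, from pups at P7, and from Nrf2-/-, Keap1-/- and Nrf2-/-Keap1-/- mice at P7. Esophageal epithelium came from wild-type and Nrf2-/- adults of 8 weeks. The knockouts were germline deletions on a C57BL background, so every cell type of the esophagus carried them, the nervous system included. RNA was taken from individual esophagi according to the methods.

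The enteric nervous system lies in ganglia within the muscle wall of the gut and is made by neural crest cells that enter the embryonic foregut and migrate along it. Glial cell line-derived neurotrophic factor from the gut mesenchyme acts on these cells through the receptor tyrosine kinase Ret and its coreceptor Gfra1, and endothelin 3 acts through Ednrb. Sox10 is held by crest progenitors and glia, whereas Phox2a and Hand2 are transcription factors of the neuronal lineage, followed by RNA-binding proteins such as Elavl4 and by the neurofilament subunits Nefl and Nefm. In the esophagus these ganglia also meet vagal axons and the nerve endings on skeletal muscle, and extrinsic nerves share Elavl4 and the neurofilaments with enteric neurons.

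Upstream sequences are shown for the members with a promoter entry in RefSeq, build GRCm38.p6, because Phox2a and Hand2 are themselves factors of the neuronal lineage and Elavl4 was among the members that fell at birth. Entries were held for 3 of the 7 members (Phox2a, Hand2 and Elavl4), and the others were Ret, Sox10, Nefl and Nefm. Each run below is the 250 bases before the annotated start, 5′ to 3′ on the strand of the gene, with E-boxes in capitals. The E-box is the letters CANNTG, which bHLH proteins such as Hand2 bind and which read the same on both strands.
Phox2a, chr7:101818063-101818312, plus strand: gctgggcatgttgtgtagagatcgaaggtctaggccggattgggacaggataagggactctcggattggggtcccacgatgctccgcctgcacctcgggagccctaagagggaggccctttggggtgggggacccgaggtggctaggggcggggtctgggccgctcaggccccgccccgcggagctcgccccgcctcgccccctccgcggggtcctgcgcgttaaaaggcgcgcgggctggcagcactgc
Hand2, chr8:57320733-57320982, plus strand: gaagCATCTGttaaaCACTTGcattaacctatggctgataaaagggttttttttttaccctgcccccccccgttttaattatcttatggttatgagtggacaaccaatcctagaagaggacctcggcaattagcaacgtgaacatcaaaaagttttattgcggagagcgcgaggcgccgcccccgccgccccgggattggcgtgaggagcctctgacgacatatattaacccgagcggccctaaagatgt
Elavl4, chr4:110287528-110287777, minus strand: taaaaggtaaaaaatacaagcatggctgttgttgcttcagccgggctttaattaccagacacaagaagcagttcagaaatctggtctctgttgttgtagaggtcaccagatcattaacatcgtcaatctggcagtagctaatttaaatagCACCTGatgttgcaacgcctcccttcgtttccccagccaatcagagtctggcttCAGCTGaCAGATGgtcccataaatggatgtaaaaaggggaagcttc
The Phox2a window held 0 E-boxes, the Hand2 window 2 and this Elavl4 window 3. Elavl4 had 4 annotated starts, whose windows held between 0 and 3 E-boxes, and 2 of these windows overlapped each other. At least 1 E-box was held by 66.2% of 32851 promoter windows of the same length. The homeodomain core TAAT, searched on both strands and free to overlap other motifs, was found 5 times for Hand2, 4 times in the Elavl4 window shown and 0 times for Phox2a, and 54.9% of all windows held it. The letters TGACNNNGC of the antioxidant response element, to which Nrf2 binds, were found on neither strand in any of these windows and in 10.2% of all windows. These are matches of letters and say nothing of binding.

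The arrays lay on 11 slides read in 4 scans, and 58.9% to 69.3% of spots on an array were well above background in Cy5. Nfe2l2, the gene that encodes Nrf2, was at a log2 ratio of -4.14 to -2.85 on all arrays of Nrf2-/- and Nrf2-/-Keap1-/- mice and at -1.47 to 1.27 on the others. Keap1 was at -0.26 to 0.64 in Keap1-/- esophagi and at 0.42 to 1 in wild-type esophagi at P7, which overlap, and where its probes lie relative to the deletion is not given in the sources used here. Nqo1, a known target of Nrf2, was at 3.95 to 4.18 in Keap1-/- esophagi and at -1.96 to 0.45 in wild type. Before any result, an exception among the embryonic arrays has to be given. Across 20890 genes, which are not independent of each other, r between E11.5 replicate 3 and both later replicates of E15.5 (2 and 3) was 0.98, whereas it was 0.83 and 0.77 with the other arrays of its own age. For E15.5 replicate 1, r was 0.96 and 0.93 with replicates 1 and 2 of the younger age and 0.8 and 0.81 with those of its own. The measured profiles of these 2 arrays thus went against their labels, which were kept. Members called in the steps that use them are also given without both. So are the counts of the glial, squamous epithelium and skeletal muscle lists. The F-test over ages and the other gene lists are given with both. Squamous epithelium markers were well above background for 10 of 10 genes at P0, at P7 and in adults. Smooth muscle markers were well above background for 9 of 9 genes on every array, adult epithelium included, so the adult samples were not free of smooth muscle RNA.

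Of the members, 6 could be measured. Ret, the receptor at the head of the pathway, was represented by 1 probe that was not well above background on any of the 27 arrays in either colour, so it has no measured level here. Its log2 ratio of sample to reference lay between -0.1 and 0.2, and it was not tested. The brighter probe of Sox10 was well above background on all 27 arrays, Elavl4 on 22, Phox2a on 23, Hand2 and Nefl on 21 and Nefm on 17. Where a gene had 2 probes, they followed each other across arrays, with r over 27 arrays from 0.76 for Sox10 to 0.98 for Nefl, but the dimmer probe of Sox10 varied with an SD of 0.29 against 1.03 and that of Elavl4 with 0.82 against 1.96. The gene means reported below therefore compress the changes of Sox10 and Elavl4. With the brightest probe alone, the change of Sox10 from wild-type P7 to adult was -2.2 on the log2 scale, beside -1.33 for the gene mean. In whole tissue, fewer neurons or glia and less RNA per cell cannot be told apart.

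**Figure D1:**
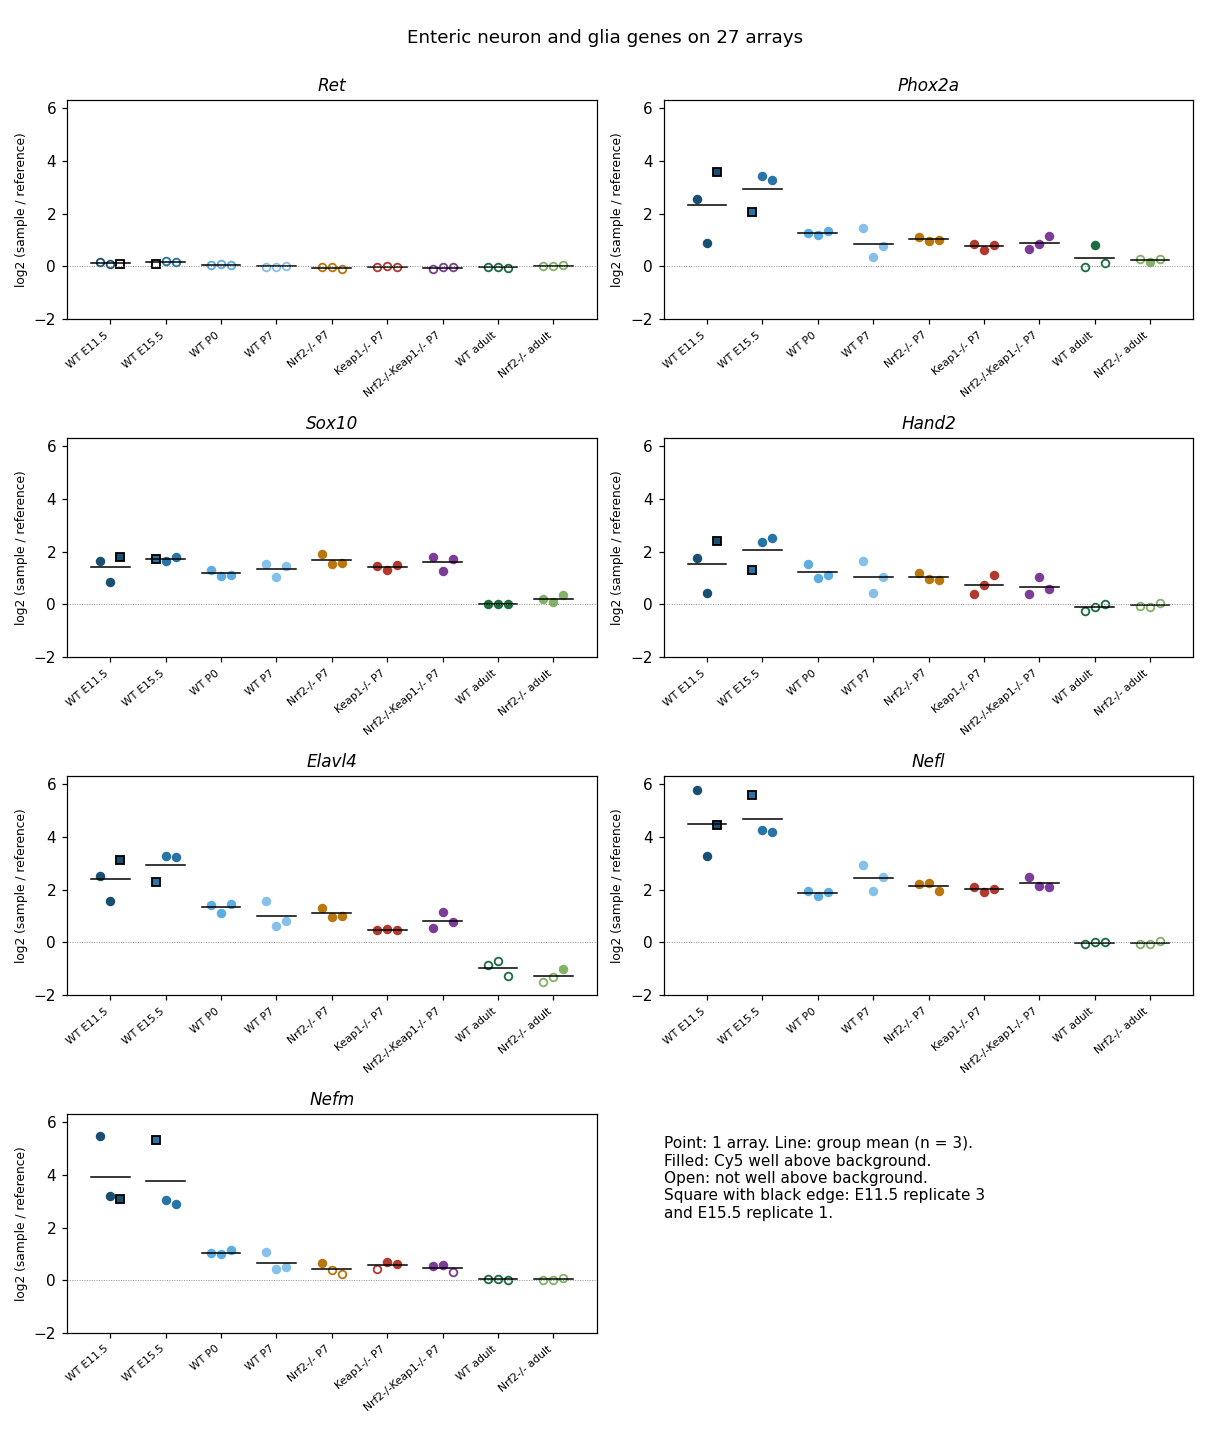
Log2 ratio of sample to reference (vertical axis) of each member on each array by group (horizontal axis), with points filled where Cy5 was well above background, lines at group means of 3 arrays and squares for E11.5 replicate 3 and E15.5 replicate 1. Nefl and Nefm were highest in embryos, 6 members were measured at P7, and the group means of adult epithelium lay between -1.28 and 0.31.

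Between the embryonic ages and birth, the neuronal members Elavl4, Nefl and Nefm fell. The neuronal factors Phox2a and Hand2, and Sox10, the progenitor and glial factor, differed less than the spread of the arrays allows to call. A call beside no call is no test of a difference between genes. Nefl, the light neurofilament subunit, had log2 ratios of 5.78, 3.29 and 4.44 at E11.5, 5.59, 4.25 and 4.18 at E15.5, 1.95, 1.76 and 1.92 at P0, and 2.92, 1.95 and 2.48 at P7. Nefm, the medium subunit, had ratios of 5.48, 3.22 and 3.1 at E11.5, 5.34, 3.04 and 2.9 at E15.5, 1.02, 0.99 and 1.15 at P0, and 1.09, 0.43 and 0.49 at P7. Every embryonic array was above every postnatal array for both subunits, and the highest values of both were those of E11.5 replicate 1 and E15.5 replicate 1. On these 2 arrays Feature Extraction marked most Nefm spots and 1 of the 2 Nefl probes as outliers, and with outlier-marked spots left out the change from the embryonic mean to P0 was -2.66 for Nefl (adjusted p = 0.00221) and -2.82 for Nefm (adjusted p = 0.00896). From the mean of the 6 embryonic arrays to P0, Nefl fell by 2.71 on the log2 scale (SE 0.48, a 6.53-fold decrease, adjusted p = 0.00251 by limma). Nefm fell by 2.79 (SE 0.61, a 6.94-fold decrease, adjusted p = 0.00665).

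Elavl4 encodes a neuronal RNA-binding protein that stabilises messages of differentiating neurons. Its ratios were 2.51, 1.56 and 3.13 at E11.5, 2.31, 3.27 and 3.26 at E15.5, 1.4, 1.12 and 1.46 at P0, and 1.57, 0.63 and 0.82 at P7. All embryonic arrays were above all P0 arrays, although the lowest array at E11.5 and the highest at P7 were nearly equal. Elavl4 fell by 1.35 from the embryonic mean to P0 (SE 0.34, a 2.55-fold decrease, adjusted p = 0.0147).

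Phox2a and Hand2 are factors of the neuronal lineage. Phox2a had ratios of 2.56, 0.89 and 3.58 at E11.5, 2.07, 3.42 and 3.29 at E15.5, 1.26, 1.2 and 1.35 at P0, and 1.45, 0.35 and 0.79 at P7. Hand2 had ratios of 1.76, 0.45 and 2.39 at E11.5, 1.31, 2.38 and 2.52 at E15.5, 1.54, 1.02 and 1.13 at P0, and 1.65, 0.43 and 1.05 at P7. For both genes E11.5 replicate 3 was as high as E15.5 replicates 2 and 3, and E11.5 replicate 2 was below every P0 array. The change from the embryonic mean to P0 was -1.37 for Phox2a (SE 0.51, adjusted p = 0.0689) and -0.57 for Hand2 (SE 0.43, adjusted p = 0.346). Neither was called.

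Sox10 had ratios of 1.66, 0.86 and 1.79 at E11.5, 1.71, 1.65 and 1.81 at E15.5, 1.31, 1.08 and 1.13 at P0, and 1.53, 1.04 and 1.44 at P7. The 3 arrays at E15.5 were above those at P0 and P7, and E11.5 overlapped every other age. The change from the embryonic mean to P0 was -0.41 (SE 0.19, adjusted p = 0.138), and that from E11.5 to P7 was -0.1 (SE 0.22, adjusted p = 0.77).

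In the order of group means, E15.5 was highest and P7 lowest for Phox2a, Hand2 and Elavl4, and for Nefl and Nefm the embryonic ages lay above P0 and P7. Of consecutive ages, E15.5 and P0 were the only pair at which a member was called. An F-test over the 4 wild-type ages called Elavl4, Nefl and Nefm, 3 of the 6 members tested, against 30.1% of 19861 genes. From the embryonic mean to P0, 3 of 6 members were lower, against 28.7% of genes called in either direction, 13.5% lower and 15.2% higher. From E15.5 to P0, the same 3 members were lower (log2 changes of -1.62 for Elavl4, -2.79 for Nefl and -2.71 for Nefm), against 19.7% of genes called, 8.45% lower and 11.2% higher. In that step 6 of 7 members, all but Hand2, had groups that did not overlap, against 43.9% of genes tested. Ret, below background and not tested, is among these 6. From E11.5 to P7, Elavl4, Nefl and Nefm were again lower, with Nefm falling by 3.26 (SE 0.7, a 9.59-fold decrease, adjusted p = 0.00644), against 30.1% of genes called, 13.4% lower and 16.8% higher. Groups at E11.5 and P7 did not overlap for 3 of 7 members (Nefl, Nefm and, below background, Ret), against 42.7% of genes. These comparisons share arrays, so they are no separate evidence of each other.

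Neither E11.5 with E15.5 nor P0 with P7 gave a call by limma. From E11.5 to E15.5 the 6 changes ran from -0.17 for Nefm to 0.58 for Phox2a, with adjusted p from 0.996 to 0.997; 0% of genes were called and 327 had an unadjusted p under 0.05, none of them a member. No member had groups at E11.5 and E15.5 that did not overlap, against 3.79% of genes. From P0 to P7 the changes ran from -0.4 for Phox2a to 0.57 for Nefl, with adjusted p from 0.743 to 0.925, against 2.42% of genes called, and no member had an unadjusted p under 0.05. Ret, below background, was the 1 member whose groups did not overlap there, against 28% of genes.

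Without E11.5 replicate 3 and E15.5 replicate 1, Elavl4 rose by 1.23 from E11.5 to E15.5 (adjusted p = 0.046), the 1 member called there. The share of all genes called in that step without both arrays is not given here. From the embryonic mean to P0, 4 members were then lower, against 34.5% of genes called, 16.5% lower and 17.9% higher. Phox2a fell by 1.27 (adjusted p = 0.0243), Elavl4 by 1.33 (0.00417), Nefl by 2.49 (0.00355) and Nefm by 2.61 (0.00154). From E15.5 to P0, Phox2a fell by 2.09 (adjusted p = 0.0103) and joined the same 3 genes, against 19.5% of genes called, 8.89% lower and 10.6% higher. From E11.5 to P7 the 3 calls remained, with log2 changes of -1.03, -2.08 and -3.68 for Elavl4, Nefl and Nefm. In that step 40.4% of genes were called, 18.9% lower and 21.5% higher. Single arrays decided some calls too. Without E11.5 replicate 2, the lowest array of that age for 5 of the members, both Phox2a (-1.73, adjusted p = 0.00758) and Sox10 (-0.55, adjusted p = 0.0108) were called lower from the embryonic mean to P0, and without P0 replicate 2 Elavl4 was not (-1.25, adjusted p = 0.0671). From E11.5 to P7, leaving out E11.5 replicate 1 (Elavl4 adjusted p = 0.0729, Nefl 0.0622) or P7 replicate 2 (0.0809 and 0.0675) kept 1 call, that of Nefm, and Elavl4 was also lost without E11.5 replicate 3 (0.0648) or P7 replicate 3 (0.0718). From E15.5 to P0, only Nefl was called without P0 replicate 2, where Elavl4 had an adjusted p of 0.0663 and Nefm of 0.0687. In that step Elavl4 was lost without E15.5 replicate 2 (0.0541) or 3 (0.0513), and Nefm without E15.5 replicate 1 (log2 change -1.92, adjusted p = 0.0584), P0 replicate 1 (0.063) or P0 replicate 3 (0.0602). With the processed signals of Feature Extraction in place of normexp and loess, Elavl4 was the 1 member called from the embryonic mean to P0 (log2 change -1.47, adjusted p = 0.0475), with Nefl at -1.94 (0.07) and Nefm at -0.95 (0.266), and 0 members were called from E15.5 to P0. From E11.5 to P7 the same signals gave -1.26 for Nefm (adjusted p = 0.192) and -0.81 for Nefl (adjusted p = 0.487), neither called, and -2 for Elavl4 (adjusted p = 0.023), which was.

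**Figure D2:**
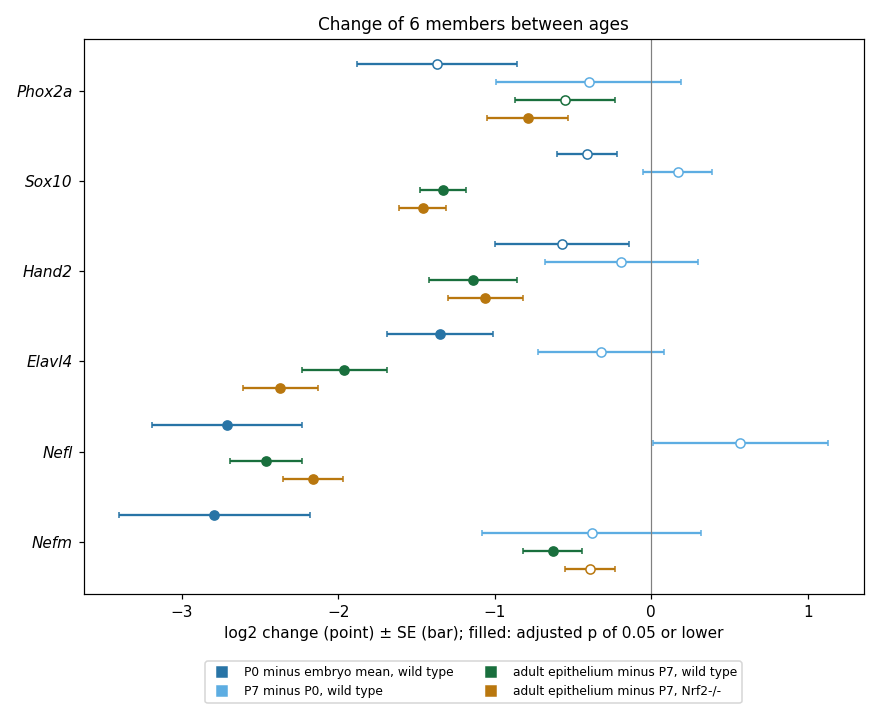
Log2 change of each member (points, with SE as bars) between ages, where filled points had an adjusted p of 0.05 or lower. Elavl4, Nefl and Nefm lie left of 0 at the step from embryo to P0, by 1.35 to 2.79 units. No member is called from P0 to P7. From P7 to adult epithelium every member tested lies left of 0 in both genotypes. Members other than Sox10 were at or mostly at background in adults and entered that step through P7 arrays, so their filled points there are a description.

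Of the other genes of the enteric pathway, some were called in either direction between embryo and P0, where 28.7% of all genes were called, 13.5% lower and 15.2% higher. Among ligands, receptors and their processing, 4 of 15 genes tested were called, a share near that of all genes: Gdnf, the ligand that acts through Ret, fell by 0.82 (adjusted p = 0.01), its coreceptor Gfra1 fell by 0.93 (0.00937), Artn, the ligand artemin, rose by 1.22 (0.00184) and Erbb3, the neuregulin receptor of glial precursors, rose by 0.6 (0.00213). Gfra1 ratios were 1.62 to 2.3 on the embryonic arrays and 0.98 to 1 at P0, with no overlap. Of 12 crest and neuronal transcription factors, 3 were lower and 1 higher. Insm1, a factor of newly formed neurons, was among the lower ones. No P0 or P7 array held it above background, so it entered through the embryonic arrays alone. The filter thus fixed its direction, and neither a p nor a size is given. Tfap2a, a neural crest and epithelial factor, rose by 0.43 (0.00551).

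Of 17 genes of neuronal cytoskeleton, RNA binding and axon, 4 were lower and 0 higher, also near the share of all genes, with a median change of -0.26, whereas all genes tested had a median of -0.02. Elavl2, a relative of Elavl4, fell by 1.34 (adjusted p = 0.000181), the dendritic microtubule protein gene Map2 fell by 0.81 (0.012) and Elavl3 by 0.7 (0.0123). Of 17 genes of synapse and transmitters, 2 were higher and 1 lower, which is no more than the share of all genes. They were Chat, which makes acetylcholine, higher by 0.61 (0.0048), Tac1, a tachykinin gene that no array at E11.5 held above background, called higher (0.04) with no size measured, and Th, which makes catecholamines, lower by 0.89 (0.038).

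Of glia and Schwann cell genes, 5 of 12 were higher and 1 lower, with a median of 0.69, against 15.2% of all genes higher and 13.5% lower. Kcna1, an axonal and glial potassium channel, rose by 2.09 (adjusted p = 0.000782) and Mbp, the myelin basic protein gene, rose by 1.54 (0.00168). Mal rose by 4.63 (0.00866), but it encodes a membrane protein of epithelia as well as of myelin. Fabp7, of glial progenitors, fell by 1.3 (0.0175). Without the 2 embryonic arrays, 7 of the 12 were higher and 1 lower, against 17.9% of genes higher and 16.5% lower. The glial list also separated these arrays, with a mean ratio over its 14 genes of 0.65 to 1.9 at E11.5, 0.83 to 1.87 at E15.5, 2.14 to 2.3 at P0 and 2.23 to 2.53 at P7. In the same step 5 of 10 squamous epithelium markers and 7 of 10 skeletal muscle markers were higher, and 0 of either lower. Without the 2 embryonic arrays, 10 of 10 squamous epithelium and 9 of 10 skeletal muscle markers were higher, and again 0 lower. Whether cell numbers or RNA per cell changed cannot be told apart, and the part of these tissues in the members' values was not tested.

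Neurons outside the gut wall were checked through 12 markers of sensory, motor and central neurons, of which 3 to 7 were well above background on a wild-type embryonic array. Olig2, Neurod1, Pax6 and Slc17a7, markers of spinal and brain cells, were at background on all wild-type arrays. Isl2, of sensory and motor neurons, was at 0.87 and 0.33 on E11.5 replicates 1 and 2, at 0.77 on E15.5 replicate 1 and between -1.08 and -0.96 on the other 3 embryonic arrays. The arrays with the highest Isl2 included those with the highest Nefl and Nefm, and its part in their values was not tested.

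**Figure D3:**
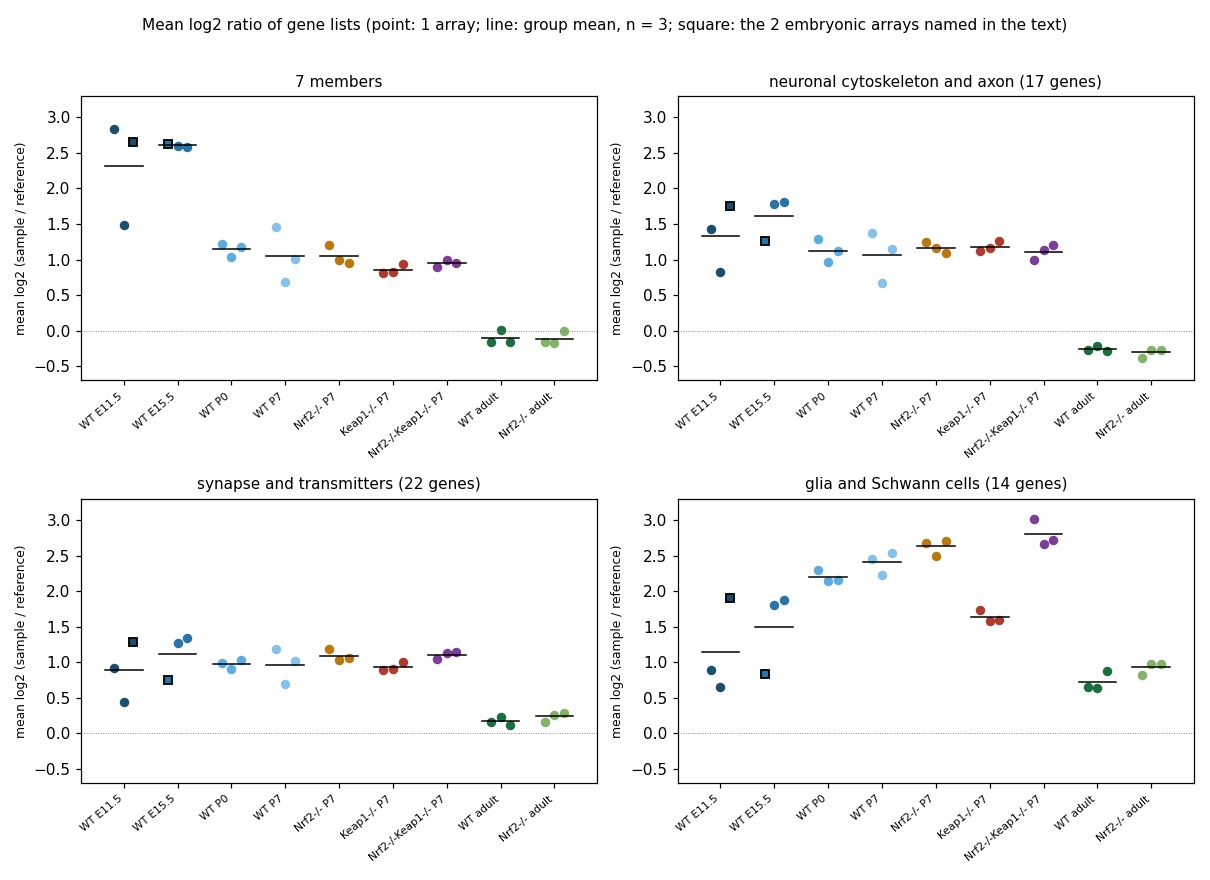
Mean log2 ratio of sample to reference (vertical axis) over 4 gene lists on each array by group (horizontal axis), with the group mean of 3 arrays as a line and the 2 embryonic arrays that went against their labels as squares. The 7 members were highest in embryos, at 1.48 to 2.84, while glial genes were higher at P0, at 2.14 to 2.3, than on any embryonic array, and all 4 lists had their lowest group means in adult epithelium.

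In adult epithelium the members were at or near background, and age and tissue cannot be told apart there because adults were sampled as epithelium and pups as whole esophagus. In wild-type adults Hand2, Elavl4, Nefl and Nefm were not well above background on any array, Phox2a was on 1 and Sox10 on 3. A gene enters this comparison through 3 arrays above background, so those 4 members entered through P7 alone and had to differ, and their count is a description. Sox10 was measured on both sides, with ratios of 1.53, 1.04 and 1.44 at P7 and 0.01, 0 and 0.01 in adults, and fell by 1.33 (SE 0.15, a 2.51-fold decrease, adjusted p = 0.000542). Phox2a was at 1.45, 0.35 and 0.79 at P7 and -0.01, 0.8 and 0.14 in adults, groups that overlapped (change -0.55, SE 0.32, adjusted p = 0.196). In all, 5 of 6 members were lower, against 42.9% of 18139 genes called, 22.9% lower and 19.9% higher. Groups did not overlap for 6 of 7 members, Ret at background among them, against 55.8% of genes.

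For the members that adults did not hold above background, only a bound can be given, from the brightest probe. Elavl4 was at least 8.39-fold lower in wild-type adult epithelium than at P7. Nefl was at least 6.01-fold lower, Hand2 at least 2.28-fold and Nefm at least 1.3-fold. No p is given for these, since the filter that let them in fixed their direction. Without any single P7 array these 4 members no longer passed the filter, and Sox10 was the 1 call left.

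The same step in Nrf2-/- mice gave 5 of 6 members lower, against 55% of 19529 genes called, 28% lower and 27% higher. All 7 members, Ret at background among them, had groups that did not overlap, against 65.2% of genes. Here Hand2 and Nefl were well above background on no adult array, and Phox2a and Elavl4 on 1 each, so these members entered through P7 arrays and their count is again a description. Nrf2-/- arrays of P7 were all read in scan 1 and those of adults in scans 2 and 3. Scan thus changed together with age and tissue in this step, on which the difference between genotypes also rests. Sox10 was at 1.93, 1.52 and 1.56 at P7 and at 0.19, 0.1 and 0.36 in adults, and fell by 1.46 (SE 0.15, adjusted p = 1.26e-05). The gene mean of Elavl4 differed by -2.37 (SE 0.24), against a group mostly at background. Phox2a, with ratios of 1.13, 0.98 and 0.99 at P7 and 0.29, 0.15 and 0.3 in adults, differed by -0.79 (SE 0.26), again against a group mostly at background. Nefl was at least 3.57-fold lower and Hand2 at least 1.87-fold lower, and Nefm was not called. Sox10 was the only member well above background on every array of both genotypes at both ages. Its change from P7 to adult differed by -0.13 between genotypes, Nrf2-/- minus wild type (SE 0.21, adjusted p = 0.845). It was not called, beside 0.0973% of genes that were. The other members tested were not called either, but were at or mostly at background in adults, so the fit cannot compare their adult levels between genotypes. In adults, Sox10 was the only member bright enough to compare genotypes, and its Nrf2-/- mean was 0.21 higher than wild type on the log2 scale (SE 0.12, adjusted p = 0.401, against 0.446% of genes called). The 2 groups of adults did not overlap for Sox10, nor for Ret at background, against 22.6% of genes. Centring arrays on their median turned that difference to -0.07. Replicates 1 and 2 of wild-type adults were read in scan 1 and replicate 3 in scan 2, so scan also differed in part between adult genotypes.

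Genes of the same roles were lower in wild-type adult epithelium by count, against 22.9% of all genes lower and 19.9% higher, although a gene that adults do not hold above background enters through P7 alone. Of the cytoskeleton and axon list, 14 of 16 were lower and 0 higher, with a median of -1.38 beside 0.01 over all genes, and Uchl1, an abundant neuronal ubiquitin hydrolase, fell by 3.54 (adjusted p = 0.000182). Of the synapse and transmitter list, 9 of 12 were lower and 2 higher. Cartpt and Vip, peptides of enteric neurons, were at 3.06 to 4.08 and 2.96 to 4.36 at P7 and not well above background in wild-type adults, so they entered through P7 and no test is given. Chat rose by 1.75 (0.000202), with ratios of 0.32, 0.84 and 0.57 at P7 and 2.29, 2.23 and 2.45 in adults. Of the glial list 10 of 12 were lower and 0 higher, and Mal fell by 5.55 (4.05e-06). Ednrb, the endothelin receptor of crest cells, fell by 2.28 (0.000568), while Nrtn, the ligand neurturin, rose by 1.44 (0.000487). In the same comparison 6 of 9 smooth muscle, 10 of 10 skeletal muscle and 8 of 8 mesenchyme markers were lower, and their part in the values of the lists was not tested.

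At P7, the members were compared between genotypes, and limma called none of them. An F-test over the 4 genotypes called 0 of 6 members, against 33.8% of 19201 genes. In Nrf2-/- esophagi the changes from wild type ran from -0.31 for Nefl to 0.33 for Sox10 (adjusted p from 0.527 to 0.995, against 0.0156% of genes called). In Nrf2-/-Keap1-/- esophagi they ran from -0.37 for Hand2 to 0.26 for Sox10 (adjusted p from 0.485 to 0.976, against 0.458%). The SE of these changes was 0.18 to 0.29. An SE is no limit of detection, and changes larger than these could also go uncalled with 3 arrays a group.

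The Keap1-/- arrays differed from wild type in 33.3% of 19201 genes, and they lay alone on their slide and in their scan, so genotype and slide cannot be told apart. Even so the 6 changes ran from -0.52 for Elavl4 to 0.08 for Sox10, with adjusted p from 0.099 to 0.783 and 0 calls; Elavl4 was the 1 member with an unadjusted p under 0.05. Elavl4 ratios were 0.48, 0.49 and 0.48 in Keap1-/- esophagi and 1.57, 0.63 and 0.82 in wild type, so every Keap1-/- array was below every wild-type array, as for 45% of genes. Sox10 ratios were 1.45, 1.29 and 1.51 in Keap1-/- and lay within the range of wild type. Nefl ratios were 2.1, 1.9 and 2.03 in Keap1-/-, beside 2.92, 1.95 and 2.48. Without wild-type P7 replicate 2, the lowest wild-type array for 6 members, Elavl4 (-0.71, adjusted p = 0.0372) and Nefl (-0.69, adjusted p = 0.0114) were called lower. With median centring in place of loess, Nefl (-0.51, adjusted p = 0.0133) and Nefm (-0.46, adjusted p = 0.017) were called lower. Nrf2-/-Keap1-/- against Keap1-/- gave 0 calls of members, from -0.09 for Nefm to 0.34 for Elavl4, against 33.4% of genes, and against Nrf2-/- it gave 0 calls, against 0% of genes.

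**Figure D4:**
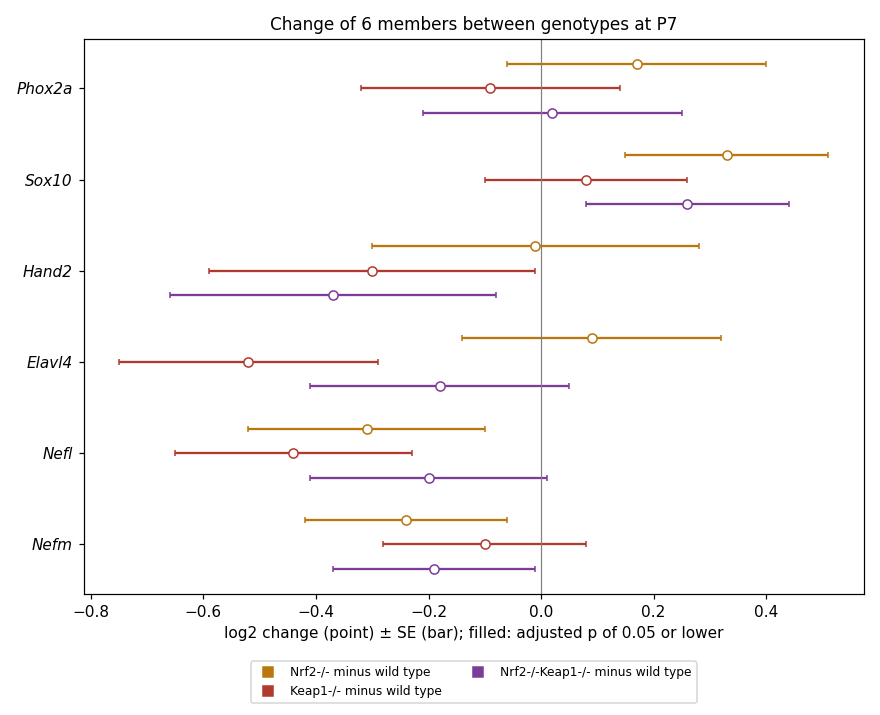
Log2 change of each member (points, with SE as bars) in 3 knockouts against wild type at P7, where a filled point would have an adjusted p of 0.05 or lower. All points are open, and the lowest is Elavl4 in Keap1-/- esophagi at -0.52.

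Glial genes gave calls in Keap1-/- esophagi where Sox10 did not. Of 13 glia and Schwann cell genes 7 were lower and 0 higher, against 18% of genes lower and 15.4% higher, with a median of -0.52 beside -0.02 over all genes. Fabp7 was at 2.05, 1.47 and 1.23 in Keap1-/- and at 3.7, 3.55 and 3.09 in wild type, a decrease of 1.87 on the log2 scale by limma (log2 change -1.87, SE 0.24, adjusted p = 0.000227). Mbp was at 1.29, 1.16 and 1.25 beside 2.1, 1.97 and 2.04 (log2 change -0.8, SE 0.17, adjusted p = 0.00501). Mal was at 0.33, 0.43 and 0.4 beside 5.45, 5.92 and 5.33 (log2 change -5.18, SE 0.14, adjusted p = 2.55e-09), the largest of the list and again a gene of epithelia too. In none of these genes did the groups overlap. S100b, a calcium-binding protein of glia, was not called, with ratios of 4.81, 3.9 and 3.84 in Keap1-/- and 3.61, 2.59 and 3.71 in wild type.

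Against Keap1-/-, Nrf2-/-Keap1-/- esophagi had 10 of 13 glial genes higher and 0 lower, against 18.3% of genes higher and 15.1% lower. Mal was at 5.17, 5.08 and 5.28 there, Fabp7 at 2.99, 3.34 and 2.8, and Kcna1 at 6.55, 6.14 and 6.25 beside 4.39, 4.62 and 4.75 in Keap1-/-. This comparison uses the same Keap1-/- arrays, on their own slide, as the comparison with wild type. In Keap1-/- esophagi 6 of 9 mesenchyme and 5 of 9 smooth muscle markers were lower too, beside 0 and 1 higher, and their part in the glial values was not tested.

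In Keap1-/- esophagi 33.3% of all genes were called, 15.4% higher and 18% lower, and the cytoskeleton and synapse lists held no larger share. Of 10 crest and neuronal transcription factors 2 were higher and 2 lower. Of 5 markers of sensory, motor and central neurons tested, 2 were lower and 0 higher. The shares of these lists were above that of all genes, on few genes tested. Of 17 cytoskeleton and axon genes 2 were higher and 2 lower: Tubb3, the neuronal beta-tubulin, was at 2.35, 2.59 and 2.74 beside 1.63, 0.8 and 0.94 in wild type and rose by 1.44 (adjusted p = 0.000363), and the tau gene Mapt rose by 1.35 (0.000237). Dpysl3 and Cntn1, proteins of growing axons, fell by 0.91 (0.0028) and 0.86 (0.0305). Of 17 synapse and transmitter genes 2 were higher and 3 lower, with Vip falling by 1.19 (0.0442). In Nrf2-/- and in Nrf2-/-Keap1-/- esophagi, 0 genes of the glial, cytoskeleton, synapse, signalling and transcription factor lists were called against wild type.

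**Figure D5:**
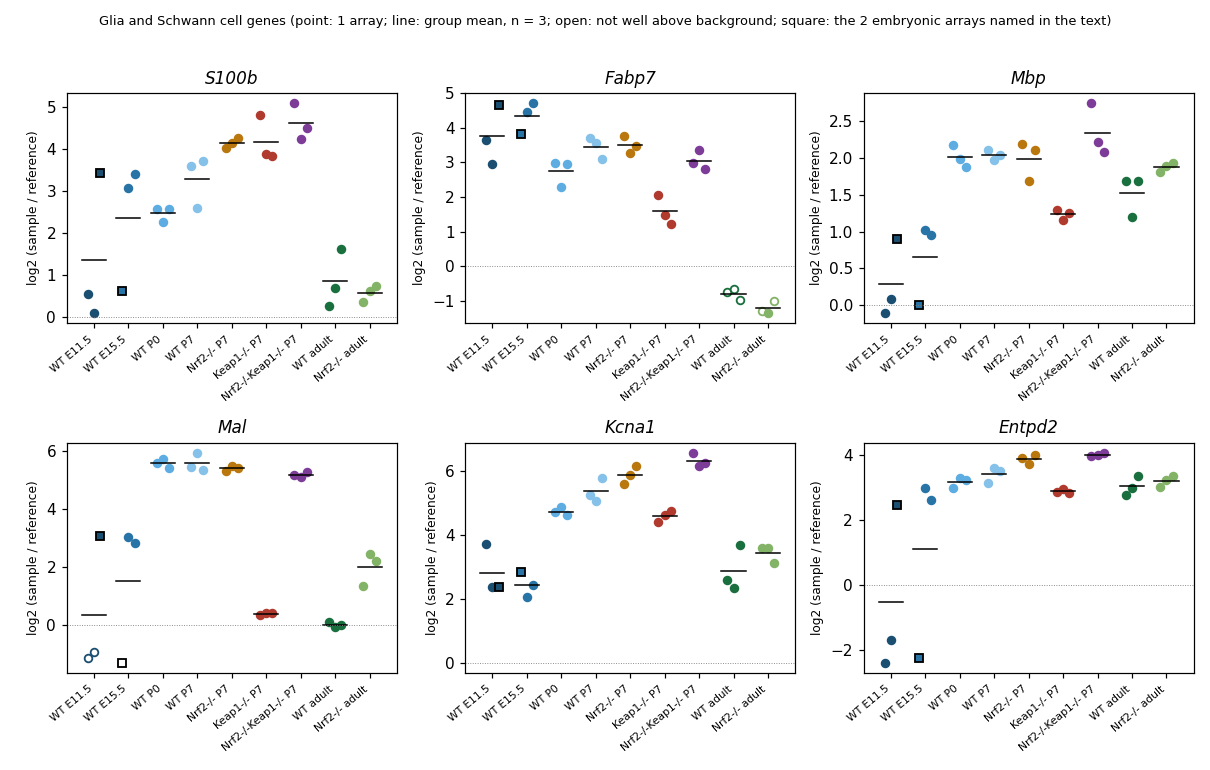
Log2 ratio of sample to reference (vertical axis) of 6 glia and Schwann cell genes, chosen after their values were seen, on each array by group (horizontal axis), with open points not well above background, lines at group means of 3 arrays and squares for the 2 embryonic arrays that went against their labels. Mal lies between 5.08 and 5.92 in the other P7 genotypes and between 0.33 and 0.43 in Keap1-/- esophagi.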

How the data were processed

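Members, gene lists and comparisons were chosen with earlier results of these data known. The authors deposited scanner files of Agilent Feature Extraction (9.1 per the labels, 10.5.1.1 and 10.7.3.1 per the file headers) with the mean intensity and local background intensity of every spot in Cy5 and Cy3. They also deposited log10 ratios of Cy5 to Cy3, which equalled those of the scanner files within 0.005 and were used as an alternative. Here, normexp (offset 50) was applied to the mean intensities and loess to the ratios of each array, without control spots and with outlier-marked spots kept. Where the local background exceeded 5 times its array's median, the median replaced it and the spot was not averaged. Log2 ratios were averaged over the spots of each probe, then over the probes of each gene. Accessions gave a current gene for 27434 of 41174 probes (66.6%), and Nefm's probe carried the older name Nef3. No per-sample columns were left unused.

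A gene was tested where 3 or more of the arrays compared held one of its probes well above background in Cy5. Tests used limma 3.58.1 in R 4.3.3, with the packages statmod (1.5.0) and data.table (1.17.8). Calls were made at 0.05 on p-values adjusted by Benjamini-Hochberg over every gene tested. Wild-type ages were fitted together on 12 arrays, as were the genotypes at P7, and P7 against adult and the adult genotypes as pairs of groups or, for Nrf2-/- and the difference between genotypes, on the 12 arrays of both ages. SE is that of the moderated fit. The labels name the samples biological replicates. Non-overlap means that the lowest array of a group exceeded the highest of the other. Tested on simulated data for E15.5 against P0 with 19861 genes, the fit recovered 62% of genes changed by 1 log2 unit and 87% of those changed by 2, and called 0.0559% of unchanged genes. Members were named in every comparison, and from each list at most 3 called genes per direction, by size, apart from some genes not reported here; S100b, Entpd2, Isl2, Nfe2l2, Keap1 and Nqo1 were named outside that rule, after their values were seen. Alternatives were Feature Extraction's processed signals, the deposited ratios, no or own local background, outlier spots left out, median centring, scaling, filters, brightest probes, other sets of arrays, replicate, slide or scan as a block, and each array left out.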

Additional observations from a re-analysis of the deposited data

How the results depend on the processing

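The counts of members called kept within 1.5 times their value under most settings and moved under these. The F-test over wild-type ages called 3 members, but 1 with each spot's own local background and 1 with a filter on both channels. From E11.5 to E15.5, leaving out E11.5 replicate 3 and E15.5 replicate 1 gave 1 call in place of 0. From the embryonic mean to P0, 3 calls became 1 with Feature Extraction's processed signals, 1 with the deposited ratios and 1 with the filter on both channels. From E15.5 to P0, 3 calls became 0 with the processed signals, 0 with the deposited ratios, 0 with own local background, 1 with the filter on both channels, 5 with all 27 arrays and 5 with the contrast's groups alone. From E11.5 to P7, 3 calls became 1 with own local background, with the filter on both channels and with the contrast's groups alone. From P7 to adult, 5 calls became 1 in wild type and 1 in Nrf2-/- with the filter on both channels, which kept fewer members, and 3 in Nrf2-/- with the scan as a block. In Keap1-/- against wild type, 0 calls became 2 with median centring. The causes of these differences were not tested, other than the members that a filter removed.

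Leaving out each array in turn gave 3 to 5 calls in the F-test over ages, 2 to 5 from the embryonic mean to P0, 1 to 5 from E15.5 to P0, 1 to 4 from E11.5 to P7, 1 to 4 from P7 to adult in wild type, 4 to 6 in Nrf2-/-, 0 to 1 in the F-test over genotypes and 0 to 2 in Keap1-/- against wild type. The lowest count from E15.5 to P0 came without P0 replicate 2, and the highest of the ages came without E11.5 replicate 2. The change of Sox10 from E11.5 to P7, not called, turned to 0.16 with own local background and to 0.08 without both embryonic arrays, and ran from -0.38 to 0.08 with an array left out. Its genotype difference in adults, not called, turned to -0.07 with median centring, which moved the median of all genes by 0.4.

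No label ties the same replicate number in different groups to a shared animal or day, and 18 of 51 same-number pairs correlated above 0.1 in their deviations from group means (-0.45 to 0.64). With the replicate number as a block, 3 members were called in the F-test over ages and in each of the steps from embryo to P0, E15.5 to P0 and E11.5 to P7, 5 from P7 to adult in either genotype and 0 elsewhere, the same counts as without the block. Slide as a fixed block could be fitted only for E11.5 against E15.5 and for Nrf2-/-Keap1-/- against Nrf2-/-, with 0 calls in both, and slide as a random block, chosen after seeing the data, gave 4 calls in place of 5 in Nrf2-/- mice from P7 to adult. Signal over background limits the lower side: Ret has no level here, and wild-type adult values of Hand2, Elavl4, Nefl and Nefm are bounds.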

Other observations

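Over the 27 arrays and 20884 genes, the genes whose log2 ratio followed the members' mean most closely, members aside, were Crmp1 (r = 0.979), St6galnac3 (0.971), Shh (0.971), Kif5c (0.97) and Tagln3 (0.97). The arrays share ages, tissues and slides, so these are descriptions. Crmp1 encodes a protein of growing axons, and its group means were 4.17 at E11.5, 4.62 at E15.5, 2.02 at P0, 1.55 at P7 and -0.33 in wild-type adult epithelium. Shh, a signal made by the foregut epithelium, followed the same course, and its group means were 4.34, 4.94, 2.99, 2.13 and 0.15 at the same ages.

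For single members the closest genes were Fam163a for Phox2a (r = 0.97), Nsg2 for Sox10 (0.962), Gng3 for Hand2 (0.951), Tram1l1 for Elavl4 (0.978), Crmp1 for Nefl (0.982) and A230070E04Rik for Nefm (0.98). Among the members themselves, r ran from 0.22 between Ret and Sox10 to 0.93 between Hand2 and Elavl4, where Ret was not above background.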
